A study of Mus musculus with 11 samples.

Results

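The 3 chain genes of complement C1q (C1qa, C1qb and C1qc) and 7 genes used as microglial markers (Cx3cr1, Csf1r, P2ry12, Aif1, Tyrobp, Ctss and Trem2) were followed through RNA-seq of mouse retina at postnatal days 4 and 8 (P4 and P8). The 10 genes were given by symbol, read by Ensembl identifier from the 11 count tables, and make up 10 of the 47069 genes counted. All 10 were among the 18188 genes that passed the filter on low counts, and each had more than 10 counts in every library, from 19 for Aif1 in its lowest library to 1499 for Csf1r in its highest. By its title, the study deals with the requirement for correlated activity of the retina near birth when visual axons wire up in nuclei that do not form images.

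The study compared a wild-type group with Brn3b-Kir2.1 mice. At P4 there were 2 libraries of wild type and 3 of Kir2.1. The P8 groups held 3 libraries apiece, and the strain was C57BL/6 throughout. Kir2.1 is an inwardly rectifying potassium channel. Its human cDNA, fused to eYFP, stood behind a CAG promoter and a floxed STOP cassette, and the Brn3b-cre line, whose driver is a ganglion cell gene, removes that cassette. The channel is therefore driven in ganglion cells and not by a microglial promoter, and the human transgene was not measured here. The genotype field names the control as wild type whereas the extraction protocol names Brn3b-cre mice, and the later age is P8 in the age field and P11 in that protocol. The field values are used. The source field names retinal ganglion cells, but the protocol describes dissociated retina without a sorting step, and genes of other cells were present in every library: the summed level of 10 rod genes ran from 253 to 7350 CPM (counts scaled by library size, TMM-scaled here and below), beside 405 to 1879 CPM for 12 ganglion cell genes. No label says that replicates came from separate animals, so p-values measure the spread between these samples, which may be technical.

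Counts assigned to genes ranged from 9362215 to 12478838 per library. Kir2.1 P8 replicate 2 had the smallest total and the most genes detected, 31325 against 22609 to 24591 in the others. Wild-type P4 replicate 2 had less of the dividing cell genes than the other P4 libraries (10 genes summing to 1083 CPM against 2402 to 3093) and more of the rod genes (1288 CPM against 253 to 808). Wild-type P8 replicate 1 had fewer rod transcripts than the other P8 libraries (840 CPM against 3329 to 7350). Results on the 10 genes that rest on these libraries are given with and without them, and those on the comparison lists with all libraries only.

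Microglia are the resident macrophages of the central nervous system and enter the retina during embryonic life. They take up dying cells and debris, and in the developing visual system they are known for removing synapses that have been tagged by complement. C1q is the recognition molecule of the classical complement pathway: its A, B and C chains assemble into a single protein, which microglia supply to much of the brain. Signals from neurons, among them fractalkine, CSF1, IL-34 and extracellular nucleotides, reach microglia through receptors that are part of this gene group.

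The 3 C1q genes lie side by side on the minus strand of chromosome 4 (GRCm38, GENCODE release 21): C1qb from 136880129 to 136886187, C1qc from 136889804 to 136893065 and C1qa from 136895917 to 136898803. Since the 10 genes varied together between libraries, the stretches before their start sites were read from the RefSeq promoter table (GRCm38.p6), which held 7 of the 10 and lacked C1qa, Csf1r and Tyrobp. The motif searched was GAGGAAG or its reverse complement CTTCCTC, a purine-rich core of the kind bound by the myeloid factor PU.1, on both strands of the 250 bases before the start. It was present in 2 of the 7 (C1qc, 194 bases before the RefSeq start, and Trem2, 41 bases before it), and in 10.6% of 32841 promoters of the same length. The shorter core GGAA, which the longer motif contains, was in 7 of 7 and in 93.5% of all. The upstream sequences of the 2 genes with a match, and of C1qb as the C1q neighbour without one, are shown 5′ to 3′ on the gene's own strand, with the motif in capitals and only as far as the annotated gene does not reach. They are C1qc (chr4:136893066-136893164, minus strand), Trem2 (chr17:48346151-48346400, plus strand) and C1qb (chr4:136886201-136886450, minus strand).
C1qc: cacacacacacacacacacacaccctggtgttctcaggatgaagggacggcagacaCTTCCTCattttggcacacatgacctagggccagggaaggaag
Trem2: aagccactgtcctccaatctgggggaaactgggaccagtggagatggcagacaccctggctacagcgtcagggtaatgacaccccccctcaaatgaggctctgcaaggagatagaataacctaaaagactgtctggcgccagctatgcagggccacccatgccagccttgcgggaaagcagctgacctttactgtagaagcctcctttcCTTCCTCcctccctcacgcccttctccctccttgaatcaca
C1qb: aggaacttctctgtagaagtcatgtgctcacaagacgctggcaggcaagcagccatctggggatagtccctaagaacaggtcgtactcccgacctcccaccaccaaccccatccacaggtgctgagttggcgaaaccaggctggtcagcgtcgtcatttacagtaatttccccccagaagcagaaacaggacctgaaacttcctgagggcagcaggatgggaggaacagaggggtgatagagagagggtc
The matches are letters in these windows and no measurement of binding.

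**Figure D1:**
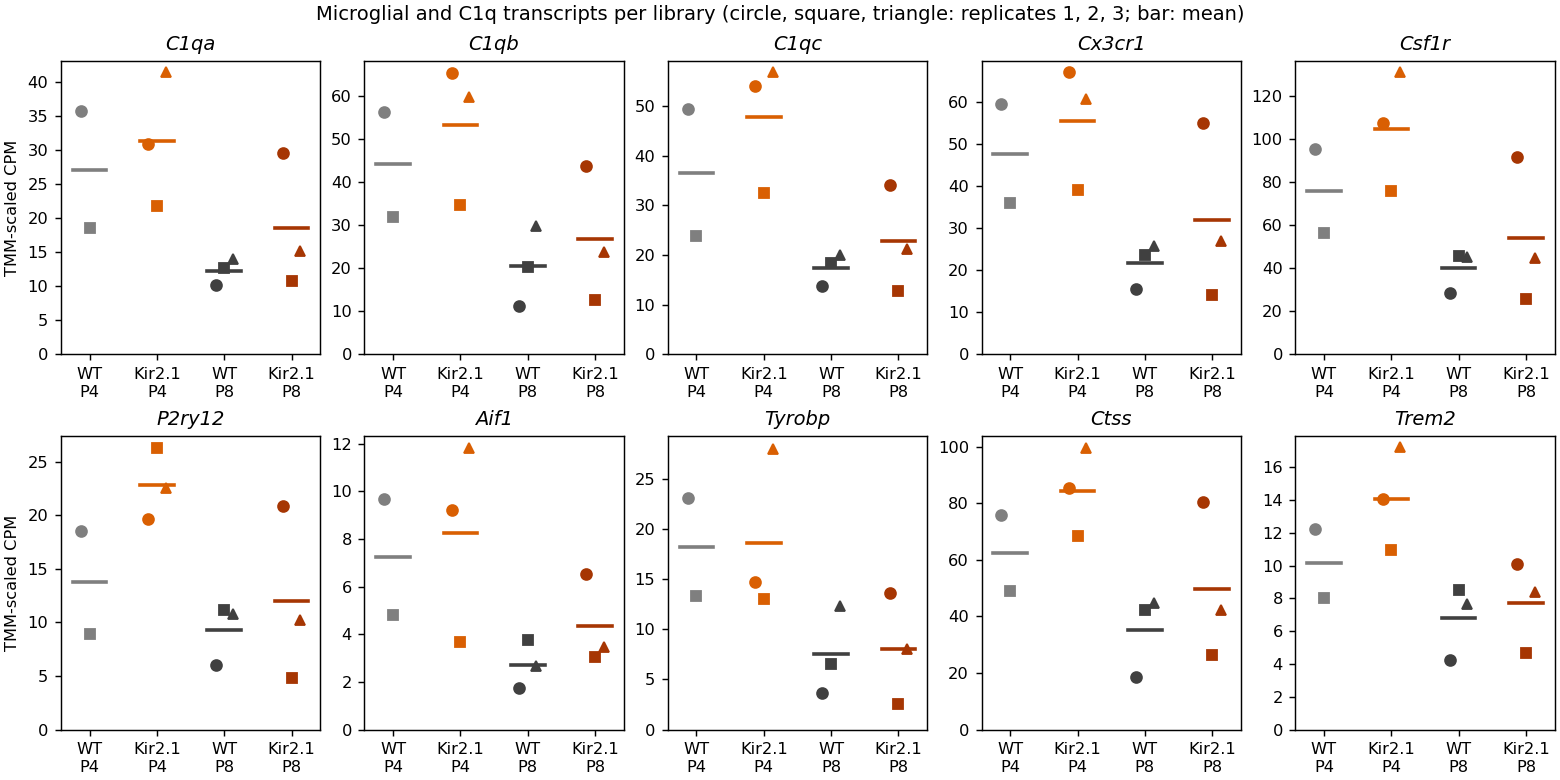
TMM-scaled CPM of each of the 10 genes (vertical axes, linear, from 0) in the 11 libraries, by group; circles, squares and triangles are replicates 1, 2 and 3 and the bar is the group mean. P4 libraries stand mostly above P8 libraries, and Kir2.1 P8 replicate 1 (circle) is the highest P8 library for all 10 genes.

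At both ages and in both genotypes all 10 genes were expressed, and all 10 had a lower mean at P8 than at P4. Averaged over genotypes, 7 of the 10 fell from P4 to P8 (edgeR quasi-likelihood test, Benjamini-Hochberg adjusted p under 0.05), to between 0.426 and 0.522 times their P4 level: the 3 C1q chains, Cx3cr1, Csf1r, Aif1 and Tyrobp. The background in this comparison was 22.8% of genes called and 12.1% called lower. Ctss, Trem2 and P2ry12 were not called, with log2 changes of -0.79, -0.72 and -0.74. Between Kir2.1 and wild type, none of the 10 was called at either age. Fewer microglia and less RNA per microglial cell cannot be told apart in bulk samples.

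The C1q chains were measured first as the secreted product of these cells. C1qa, which encodes the A chain (ENSMUSG00000036887), was at 35.7 and 18.5 CPM in wild type and at 30.9, 21.8 and 41.5 CPM in Kir2.1 at P4. Its P8 values were 10.2, 12.7 and 14.0 CPM in wild type and 29.6, 10.7 and 15.2 CPM in Kir2.1. Every wild-type P8 library was below every wild-type P4 library, whereas in Kir2.1 the first P8 replicate reached into the P4 range. The log2 change from P4 to P8, averaged over genotypes, was -0.95 ± 0.27 (SE, edgeR adjusted p = 0.0249).

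C1qb, the B chain gene (ENSMUSG00000036905), was at 56.3 and 32.1 CPM in wild type and at 65.5, 34.8 and 59.9 CPM in Kir2.1 at P4. Its P8 values were 11.4, 20.2 and 29.9 CPM in wild type and 43.9, 12.7 and 23.8 CPM in Kir2.1. As for C1qa, the wild-type ages were separate and the Kir2.1 ages overlapped through replicate 1 at P8. C1qb fell by 1.05 on the log2 scale (SE 0.32, edgeR adjusted p = 0.0351).

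C1qc, the C chain gene (ENSMUSG00000036896), was at 49.3 and 23.9 CPM in wild type and at 54.1, 32.5 and 56.9 CPM in Kir2.1 at P4. By P8 the libraries were at 13.7, 18.5 and 19.9 CPM in wild type and at 34.2, 12.8 and 21.2 CPM in Kir2.1. The groups lay as for C1qa and C1qb. It fell by 1.07 on the log2 scale (SE 0.26), with the lowest adjusted p of the 10 genes (edgeR, 0.0120).

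Per kilobase of exon, which allows levels to be set between genes, the chain transcripts kept similar proportions while their sum ran from 27.3 CPM per kb in wild-type P8 replicate 1 to 124 CPM per kb in Kir2.1 P4 replicate 3. C1qb made up 38.2% to 53.6% of the sum (median 46.1%), C1qa 25.2% to 36.0% (median 30.7%) and C1qc 20.2% to 26.0% (median 23.2%). C1qb was above C1qa, and C1qa above C1qc, in each of the 11 libraries. The C1qb share was lowest in wild-type P8 replicate 1 and Kir2.1 P8 replicate 2, the libraries with the lowest C1q sums.

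**Figure D2:**
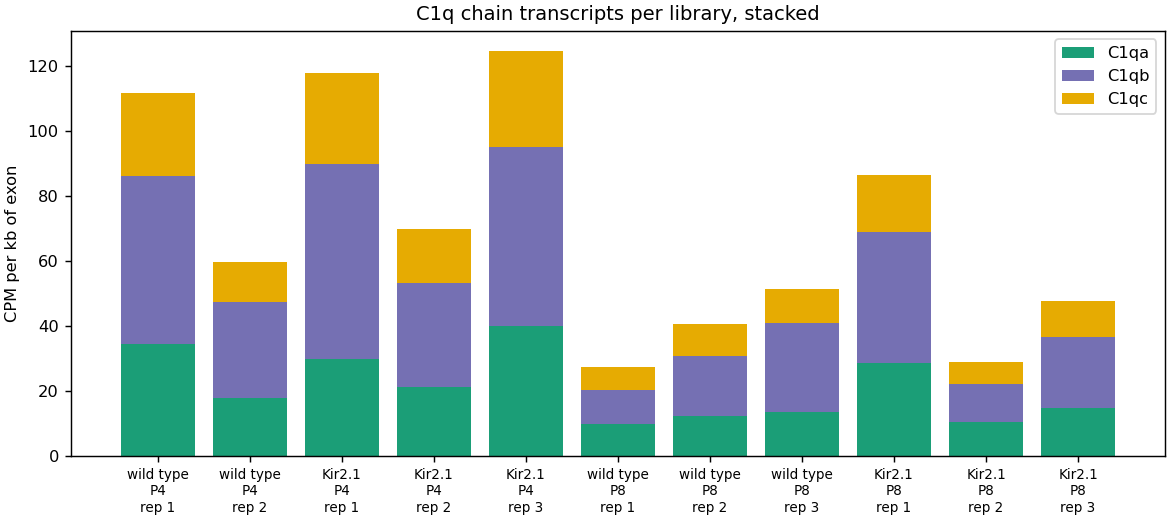
Stacked bars of C1qa, C1qb and C1qc in CPM per kilobase of exon (vertical axis, from 0) for each of the 11 libraries. The whole bar runs from 27.3 to 124 CPM per kb, and C1qb is the largest segment in every library.

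Among the surface receptors, Csf1r encodes the receptor for CSF1 and IL-34, on which microglial survival depends. Csf1r (ENSMUSG00000024621) was at 95.3 and 56.4 CPM in wild type and at 108, 76.2 and 131 CPM in Kir2.1 at P4. The P8 levels were 28.6, 45.9 and 45.4 CPM in wild type and 91.9, 25.9 and 44.9 CPM in Kir2.1. The wild-type ages did not overlap, and in Kir2.1 the 91.9 CPM library exceeded the lowest P4 library. The log2 change was -0.94 ± 0.29 (SE, edgeR adjusted p = 0.0339). Of its exon bases 873 (15.1%) overlap exons of Hmgxb3 on the opposite strand, and the strand setting of the counting is not given in the sources used here, so some reads may belong to either gene. The same holds for 78 exon bases of Cx3cr1 and 9 of P2ry12.

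Cx3cr1 is the receptor for fractalkine, a ligand made by neurons (ENSMUSG00000052336, chromosome 9, 119901616 to 120069879, minus strand). It was at 59.5 and 36.0 CPM in wild type and at 67.2, 39.1 and 60.7 CPM in Kir2.1 at P4. Its P8 values were 15.7, 23.7 and 25.7 CPM in wild type and 55.0, 14.1 and 27.0 CPM in Kir2.1. Again the wild-type ages were separate and Kir2.1 P8 replicate 1 lay among the P4 values. The log2 change was -0.96 ± 0.30 (SE, edgeR adjusted p = 0.0357).

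P2ry12 encodes an ADP receptor that steers microglial processes towards sources of nucleotides (ENSMUSG00000036353, chromosome 3, 59216272 to 59262871, minus strand). It was at 18.6 and 8.97 CPM in wild type and at 19.6, 26.3 and 22.6 CPM in Kir2.1 at P4. In the P8 libraries it was at 6.05, 11.1 and 10.8 CPM in wild type and 20.9, 4.80 and 10.3 CPM in Kir2.1. It was the only one of the 10 genes for which the P4 Kir2.1 libraries all exceeded the P4 wild-type libraries, and its wild-type ages overlapped. Its change with age was -0.74 ± 0.33 on the log2 scale (SE, edgeR adjusted p = 0.129).

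Trem2 and Tyrobp encode partners: TREM2 is a lipid-sensing receptor and TYROBP (DAP12) the adaptor through which it signals. Tyrobp (ENSMUSG00000030579, chromosome 7, 30413760 to 30417585, plus strand) was at 23.1 and 13.3 CPM in wild type and at 14.7, 13.05 and 28.0 CPM in Kir2.1 at P4. In P8 libraries it was at 3.66, 6.55 and 12.3 CPM in wild type and 13.7, 2.505 and 8.03 CPM in Kir2.1. It had the largest age change of the 10 genes, -1.23 ± 0.40 on the log2 scale, and the least precise (SE, edgeR adjusted p = 0.0456). Trem2 (ENSMUSG00000023992, chromosome 17, 48346401 to 48354147, plus strand) was at 12.2 and 8.04 CPM in wild type and at 14.0, 10.98 and 17.2 CPM in Kir2.1 at P4. At P8 Trem2 was at 4.21, 8.51 and 7.65 CPM in wild type and at 10.1, 4.70 and 8.39 CPM in Kir2.1. Trem2 was the gene whose Kir2.1 ages did not overlap, while its wild-type ages did, and its log2 change of -0.72 ± 0.25 was not called (edgeR adjusted p = 0.0596).

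Aif1 encodes IBA1, the actin-binding protein stained to show microglia in tissue (ENSMUSG00000024397, chromosome 17, 35170991 to 35176068, minus strand). It was at 9.66 and 4.82 CPM in wild type and at 9.21, 3.68 and 11.8 CPM in Kir2.1 at P4. Its P8 level was 1.74, 3.74 and 2.68 CPM in wild type and 6.54, 3.03 and 3.48 CPM in Kir2.1. The log2 change was -1.16 ± 0.36 (SE, edgeR adjusted p = 0.0345), and voom did not call it (-0.98, adjusted p = 0.0758). Ctss, the gene of the lysosomal protease cathepsin S (ENSMUSG00000038642, chromosome 3, 95526786 to 95556403, plus strand), was at 75.8 and 49.0 CPM in wild type and at 85.2, 68.2 and 99.6 CPM in Kir2.1 at P4. By P8 its level was 18.7, 42.2 and 44.8 CPM in wild type and 80.6, 26.3 and 42.2 CPM in Kir2.1. Wild-type ages were separate for both genes. The change of Ctss, -0.79 ± 0.29 on the log2 scale, was not called (edgeR adjusted p = 0.0666).

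Within a single genotype no member was called for age by edgeR, where 3.58% of all genes were called lower in wild type and 8.73% in Kir2.1. The unadjusted p was under 0.05 for 5 of the 10 in each genotype, beside 10.9% of genes lower in wild type and 14.9% in Kir2.1. DESeq2 called 1 of the 10 lower in each genotype, beside 963 genes lower in wild type and 1863 in Kir2.1. The voom fit called 4 lower in Kir2.1 and 0 in wild type, beside 2218 and 699 genes lower. Without Kir2.1 P8 replicate 1, edgeR called 7 lower in Kir2.1, beside 1163 genes lower. All 10 log2 changes were below 0 in both genotypes (47.4% and 49.6% of genes), with medians of -1.09 in wild type and -0.92 in Kir2.1, beside a median of 0.02 over all genes for the average of both. The wild-type median was -0.55, with P2ry12 above 0, without wild-type P4 replicate 1. The Kir2.1 median was -1.46 without Kir2.1 P8 replicate 1 and -0.61 without Kir2.1 P8 replicate 2. In wild type 8 of the 10 genes had all P8 libraries below all P4 libraries, as did 16.9% of genes; in Kir2.1 this was so for 1 gene, beside 18.7%. Whether the age change differed between genotypes was tested by the interaction below.

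**Figure D3:**
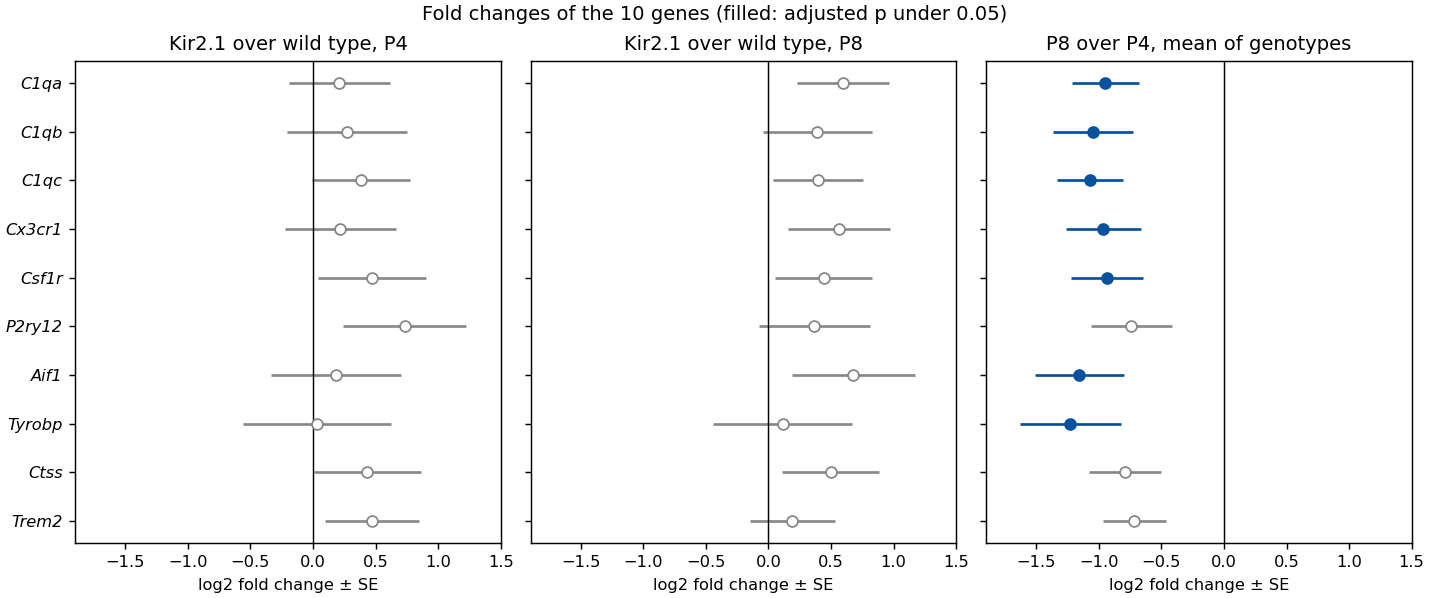
Log2 fold changes with their standard errors (horizontal bars) for the 10 genes: Kir2.1 over wild type at P4, the same at P8, and P8 over P4 averaged over genotypes; filled points have an edgeR adjusted p under 0.05. No genotype point is filled, and 7 of the 10 age points are, all left of 0.

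The age calls were close to the threshold and depended on single libraries. The number of the 10 genes called lower fell from 7 to 0 without wild-type P4 replicate 1, to 1 without either Kir2.1 P4 replicate 3 or its P8 counterpart, and to 2 without Kir2.1 P4 replicate 1. It was 3 without wild-type P8 replicate 1 or without wild-type P8 replicate 2 and 4 without Kir2.1 P8 replicate 2. It rose to 10 without Kir2.1 P8 replicate 1, and it was 7 without any other single library and 7 with wild-type P4 replicate 2 and wild-type P8 replicate 1 both left out. In all of these fits all 10 changes stayed below 0, with medians from -1.26 to -0.74. In the fit of all libraries 48% of genes were below 0. Calls over all genes shifted as well, from 2192 called lower in that fit. Dropping Kir2.1 P4 replicates 1, 2 and 3 in turn gave 1838, 2012 and 1865. Dropping the Kir2.1 P8 replicates in the same order gave 1962, 1858 and 1760. For the wild-type P8 replicates the counts were 2400, 1957 and 2202. Dropping a wild-type P4 replicate leaves 1 library in that group, so all-gene calls are not compared there. The cell makeup of the libraries moved with age too: the 10 dividing cell genes summed to 1083 to 3093 CPM at P4 and to 107 to 164 CPM at P8. Of 12 ganglion cell markers 11 were called lower at P8 and 1 higher (Isl1, 2.29), with a median of -2.02, beside 12.1% and 10.7% of all genes. All 10 rod markers were called higher (median 2.91). Of the 10 genes on the list used for bipolar cells, 8 were called higher (list median 3.21). The list's Isl2, whose place among bipolar cell markers was not checked here, was called lower (-1.58). The part of these changes in the fall of the microglial genes was not tested.

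The genotype comparison set retinas with the channel in ganglion cells beside wild-type retinas. At P4 no member was called (edgeR), as no gene was (0% of 18188), and none of the 10 had an unadjusted p under 0.05, beside 7.22% of all genes. All 10 log2 fold changes of Kir2.1 over wild type were above 0 (51.3% of genes were), from 0.03 for Tyrobp to 0.73 for P2ry12, with a median of 0.33. P2ry12 alone did not overlap between the groups, which 12.4% of genes did in this direction, and its 95% interval was -0.34 to 1.80 on the log2 scale (edgeR adjusted p = 0.757). For the C1q chains the intervals were -0.66 to 1.09 (C1qa), -0.77 to 1.32 (C1qb) and -0.47 to 1.24 (C1qc), so that differences of up to about 2.12-fold to 2.49-fold higher were within the error of 2 against 3 libraries. The direction rested on wild-type P4 replicate 2, which was the lowest P4 library for 8 of the 10 genes and which had few dividing cell and many rod transcripts. Without it the median was -0.06 and 4 of the 10 genes were above 0, and without wild-type P4 replicate 1 the median was 0.77; without Kir2.1 P4 replicate 2 it was 0.56 and without Kir2.1 P4 replicate 3 it was 0.21.

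At P8 the picture was similar: edgeR called no member and no gene (0%), no member had an unadjusted p under 0.05 (6.82% of genes did), and all 10 fold changes were above 0 (50.5% of genes were), with a median log2 value of 0.42. They ran from 0.11 ± 0.55 (SE) for Tyrobp to 0.68 ± 0.49 for Aif1. The groups overlapped for all 10 genes, while 5.5% of genes had all Kir2.1 libraries higher. Kir2.1 P8 replicate 1 was the highest P8 library for all 10 genes, and without it the median was -0.06 with 2 genes above 0. The summed level of the 10 genes was 386 CPM in that library, against 118 and 204 CPM in the other Kir2.1 libraries and 114 to 213 CPM in wild type. The lowest P8 libraries came from both genotypes: wild-type P8 replicate 1 and Kir2.1 P8 replicate 2 were each lowest for 5 genes, and the median was 0.22 without the former and 0.76 without the latter. Without wild-type P8 replicate 3 it was 0.67.

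Averaged over ages, no member and no gene (0%) was called by edgeR, none of the 10 had an unadjusted p under 0.05 (11.7% of genes did), and all 10 log2 changes were above 0 (51.3% of genes were), with a median of 0.40. DESeq2 and voom called no member at either age or on average. The adjusted p ran from 0.513 for P2ry12 (log2 change 0.55 ± 0.33, SE, interval -0.17 to 1.27) to 0.956 for Tyrobp (0.07 ± 0.40). The upper limits of the 95% intervals were between 1.85-fold and 2.41-fold higher, and the lower limits between 0.571 and 0.893 times wild type. The median was 0.17 without Kir2.1 P8 replicate 1, 0.22 without the second and 0.65 without the first wild-type P4 replicate, and 0.12 with wild-type P4 replicate 2 and wild-type P8 replicate 1 both left out. The genotype effect did not pass the test for a difference between ages in any member (interaction, edgeR, no gene called, 0%; 3.09% of genes and no member had an unadjusted p under 0.05). Its estimates ran from -0.37 for P2ry12 to 0.50 for Aif1, with the widest interval, that of Tyrobp, from -1.68 to 1.84. They had no stable direction: 7 of the 10 were above 0 with all libraries (median 0.07), 0 without wild-type P4 replicate 1 (median -0.35), 1 without Kir2.1 P8 replicate 1 (median -0.46) and 9 without wild-type P4 replicate 2 (median 0.43).

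The authors' deposited tables of Kir2.1 against wild type called none of the 10 genes either. In the authors' deposited table for P4 the log2 fold changes ran from -0.26 for C1qa to 0.49 for P2ry12, with adjusted p from 0.727 to 0.996, and 2.27% of genes with an adjusted p were called in either direction. In the authors' deposited table for P8 all 10 were above 0, from 0.30 for P2ry12 to 0.78 for Tyrobp, with adjusted p from 0.323 to 0.854 and none given for Aif1. That table called 7.27% of genes. C1qa at P4 had opposite signs in the authors' deposited table and in the fit here (0.21). Which libraries entered the authors' models is not given in the sources used here.

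The 10 genes moved together from library to library. Over the 11 libraries the Pearson correlation of log2 CPM between pairs of them ran from 0.71 (P2ry12 and Aif1) to 0.98 (Cx3cr1 and Csf1r), with a median of 0.93 over 45 pairs. After subtraction of each group's mean, which removes age and genotype, the range was 0.55 to 0.98 with a median of 0.88. These points share libraries and depth, and they are a description. Csf1r followed the mean of the other 9 genes most closely (r = 0.99), and P2ry12 (0.89) and Aif1 (0.90) least. Within groups, all 10 genes were above the group mean in wild-type P4 replicate 1, wild-type P8 replicate 3 and Kir2.1 P8 replicate 1, and all 10 were below it in wild-type P4 replicate 2, wild-type P8 replicate 1 and Kir2.1 P8 replicate 2. The highest library of a group exceeded the lowest by a median of 1.75-fold in wild-type P4, 1.74-fold in Kir2.1 P4, 1.93-fold in wild-type P8 and 3.26-fold in Kir2.1 P8.

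Among the 15984 other genes with a mean of at least 1 CPM, the 6 most like the members' mean in log2 CPM over the 11 libraries included Fcrls (r = 0.98), Unc93b1 (0.97), Itgb2 (0.97), Adgre1 (0.96) and Mpeg1 (0.96). Fcrls and Adgre1 are among the other microglial markers described below, and Itgb2 encodes the beta chain of complement receptor 3. On deviations from the group means they were Fgd2 (0.99), Kctd12 (0.98), Ptgs1 (0.97), Vsir (0.96), Rgs10 (0.96) and Fcrls (0.95). These too are descriptions over libraries that share depth and scaling.

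Per kilobase of exon and averaged over libraries, Ctss had the highest level of the 10 genes, 42.4 CPM per kb, followed by C1qb (32.6), C1qa (21.04), Tyrobp (18.9), C1qc (15.9), Csf1r (11.8), Cx3cr1 (8.55), P2ry12 (5.71), Aif1 (3.58) and Trem2 (1.95 CPM per kb). Most neighbours in this order kept it in each of the 11 libraries. The exceptions were C1qa above Tyrobp (7 of 11), Tyrobp above C1qc (8 of 11), Cx3cr1 above P2ry12 (10 of 11) and P2ry12 above Aif1 (10 of 11), so that Tyrobp had no fixed place relative to C1qa and C1qc. Exon lengths are those of the annotated gene, and a shorter transcript in use would raise a level.

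**Figure D4:**
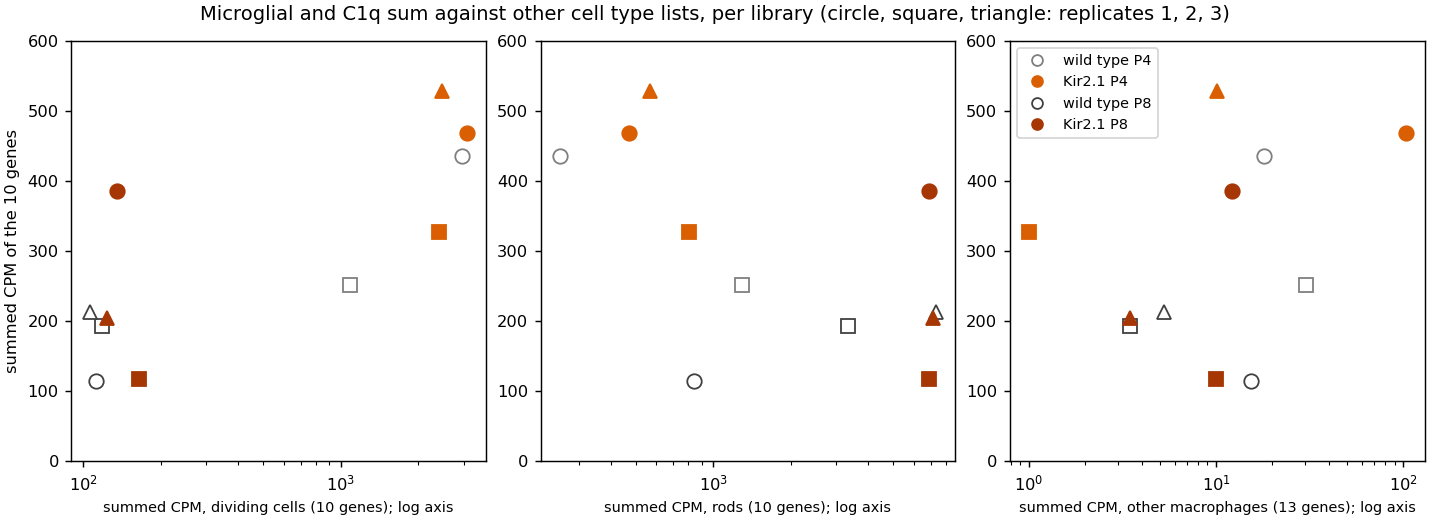
Summed CPM of the 10 genes (vertical axis, from 0) against the summed CPM of the dividing cell, rod and other macrophage lists (horizontal axes, log scale), 1 point per library; symbols give the replicate and colours the group. Wild-type P4 replicate 2 stands at 251 CPM for the 10 genes with 1083 CPM for the dividing list, below the other P4 libraries on both axes, and Kir2.1 P8 replicate 1 stands at 386 CPM among P8 libraries.

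The microglial label was checked against markers of other macrophages, monocytes and lymphocytes. Of 13 markers of other macrophages and monocytes only 6 passed the filter, and Ly6c2, Plac8, Chil3, S100a8, S100a9, Ccr2 and Cbr2 had group means of at most 0.405 CPM. The sum of the 13 was 18.1 and 30.3 CPM in wild-type P4, 103, 0.998 and 10.1 CPM in Kir2.1 P4, 3.49 to 15.4 CPM in wild-type P8 and 3.48 to 12.2 CPM in Kir2.1 P8. The 103 CPM library was Kir2.1 P4 replicate 1, where Mrc1 was at 45.1 and F13a1 at 24.0 CPM. In Kir2.1 P4 replicates 1, 2 and 3, with 103, 0.998 and 10.1 CPM of these markers, the 10 genes summed to 468, 327 and 529 CPM. The 468 CPM was the second highest member sum of the 11 libraries and the 327 CPM the lowest of its group. With age all 6 had log2 changes below 0, from -2.49 to -1.46, and their median of -1.94 was further below 0 than the median of -0.96 of the 10 genes. None of the 6 was called for age or genotype (edgeR; 2 of the 6 had an unadjusted p under 0.05, lower at P8), and their part in the age change of the 10 genes was not tested. The 7 lymphocyte markers summed to 0.171 to 3.24 CPM.

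Other microglial identity genes also fell with age. Of 14, 7 were called lower at P8 and none higher, beside 12.1% and 10.7% of genes, and the list median was -0.96 against 0.02 over all genes tested. Cd33, a sialic acid receptor, fell by 1.36 (SE 0.25, edgeR adjusted p = 0.00248) and was the gene of this list called within each genotype as well. Also called lower were Adgre1, the gene of F4/80 (-1.30), Fcrls (-1.20), P2ry13, a nucleotide receptor (-1.14), Olfml3 (-0.93) and Sall1, a transcription factor of microglial identity (-0.82). Tmem119 was at -0.95 (edgeR adjusted p = 0.0765) and Selplg at 0.01. No gene of this list was called between genotypes.

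Of 20 myeloid receptor and signalling genes 11 were called lower at P8 and none higher, beside 12.1% and 10.7% of all genes, with a list median of -0.99. Among the largest decreases were Fcgr1, a high-affinity IgG receptor (-1.37), Fcer1g (-1.21) and Cyth4 (-1.09). The smallest of those called were Lyn and Inpp5d (both -0.88), Ptprc, the gene of CD45 (-0.95), and Fcgr3 (-0.96). Of 10 myeloid transcription factors, Spi1, which encodes PU.1 (-1.16, edgeR adjusted p = 0.0348), and Irf8 (-0.82, edgeR adjusted p = 0.0479) were lower, and Bhlhe41 was higher (1.24). Bhlhe41 was at 11.9 to 18.6 CPM at P4 and at 12.2 to 44.4 CPM at P8, with its lowest P8 value in wild-type replicate 1, the library with few rod transcripts. The list's other 7 genes were not called, so that 2 of 10 were lower and 1 higher, beside 12.1% and 10.7% of all genes.

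Of 21 lysosome and phagocytosis genes 8 were lower at P8 and 1 higher, beside 12.1% and 10.7% of all genes, with a list median of -0.50. Pros1 (-1.04), Cd68, a lysosomal membrane protein of macrophages (-0.95), Ctsz (-0.94) and Grn, the progranulin gene (-0.70), had the largest decreases, and Axl, Ctsd, Tyro3 and Ctsb were also lower. Gas6, a ligand of the TAM receptors Tyro3, Axl and Mertk, was higher (0.74, edgeR adjusted p = 0.00210). Of 15 tested genes of the activated microglial state, Igf1 (-1.17) and Fabp5 (-0.77) were lower and none was higher, a share near the 12.1% of all genes called lower. Apoe, at 440.2 CPM on average, was at -0.14.

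**Figure D5:**
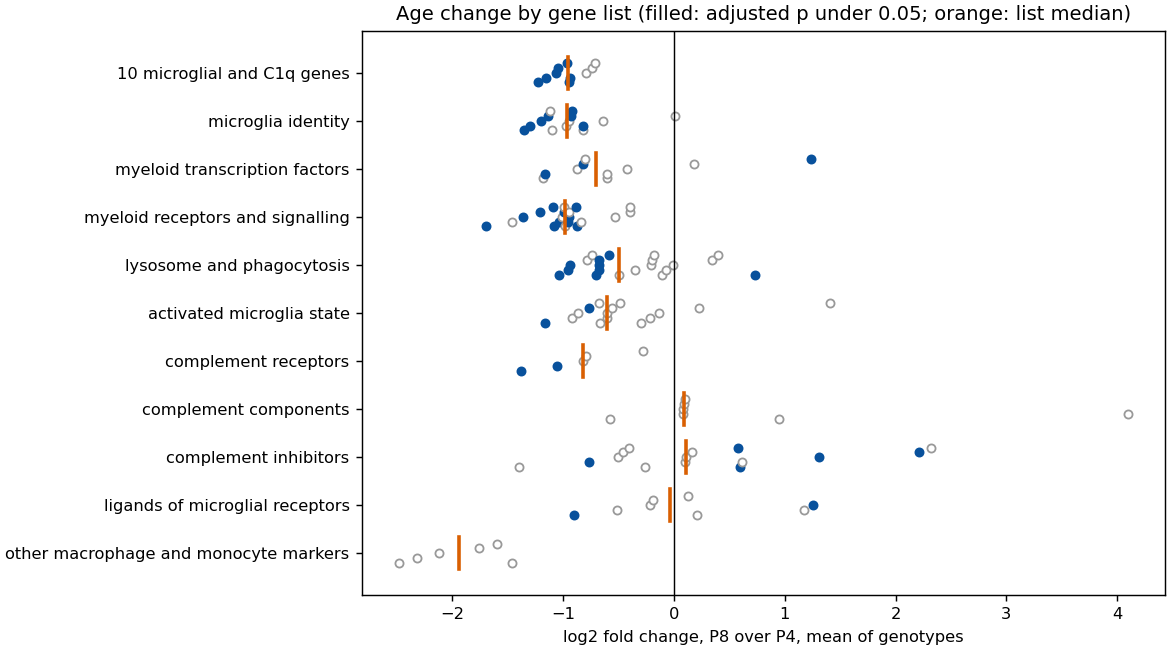
Log2 fold change from P4 to P8, averaged over genotypes (horizontal axis), of each gene tested in 11 lists (rows); filled points have an edgeR adjusted p under 0.05 and the orange bar is the list median. The medians of the 10 genes, the microglia identity list and the myeloid receptor list lie between -0.99 and -0.96, and those of the complement component, complement inhibitor and ligand lists between -0.03 and 0.11.

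Most other complement components gave few counts. Of 16 other complement components 7 passed the filter and none was called for age (edgeR; none had an unadjusted p under 0.05). C3, on which the classical and alternative pathways converge, was at 1.14 to 4.08 CPM, C4a at 0.680 to 4.56 CPM and C4b at up to 1.74 CPM. The C1r and C1s proteases, which complete the C1 complex with C1q, did not pass the filter (means over the 11 libraries of 0.055 CPM for C1ra, 0.009 for C1rb, 0.288 for C1s1 and 0.044 for C1s2), and Cfb had no count. Cfp, the gene of properdin, was at 14.0 to 21.3 CPM, with an age change of 0.09 (edgeR adjusted p = 0.713). On the list median, the 7 tested genes were at 0.09 where the 3 C1q chains were at -0.95, -1.05 and -1.07.

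The list used for complement receptors had 5 tested genes. Of these, both chains of complement receptor 3 were lower at P8: Itgam (-1.05 ± 0.34, SE, edgeR adjusted p = 0.0438) and Itgb2 (-1.38 ± 0.36, edgeR adjusted p = 0.0158). C3ar1 was at -0.82, C5ar1 at -0.80 and Cr1l at -0.28, none of them called. Of 15 complement inhibitors and related regulators 4 were higher and 1 lower, beside 10.7% and 12.1% of all genes. Vtn, which encodes vitronectin, rose by 2.21 on the log2 scale (SE 0.32, edgeR adjusted p = 0.000433), from 1.20 to 4.74 CPM at P4 to 6.96 to 18.4 CPM at P8 without overlap. Csmd3 (1.31), Susd4 (0.60) and Sez6 (0.58), neuronal proteins with complement control or CUB domains, were higher, and Sez6l was lower (-0.77). None of these genes was called between genotypes.

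Of 8 tested ligands of the microglial receptors 1 was called higher at P8 and 1 lower, shares near the 10.7% and 12.1% of all genes, and 6 were not called. Csf1, a ligand of Csf1r, fell by 0.90 (SE 0.27, edgeR adjusted p = 0.0290), from 7.95 to 13.7 CPM at P4 to 3.24 to 8.38 CPM at P8. Il34, the other ligand of that receptor, did not pass the filter. Tgfb2, a member of the TGF-beta family on which microglial identity depends, rose by 1.25 (SE 0.13, edgeR adjusted p = 5.46e-05), from 97.9 to 148 CPM at P4 to 246 to 337 CPM at P8, and was called in each genotype. Cx3cl1, which encodes fractalkine, was at 0.13 (edgeR adjusted p = 0.777), and the inhibitory ligands Cd200 and Cd47 were at -0.22 and -0.19, not called. Of the receptors in the list of ligand receptors, Sirpa, the receptor for CD47, was higher at P8 (0.50 ± 0.10, SE, edgeR adjusted p = 0.00329), whereas Tgfbr1 and Tgfbr2 were not called.

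In the Kir2.1 comparisons no gene of these lists was called at either age. The fold changes of the 14 microglia identity genes were above 0 for 12 at P4 (median 0.29) and for 12 at P8 (median 0.34), and those of the 20 myeloid receptor genes for 19 and 17 (medians 0.39 and 0.40), beside 51.3% and 50.5% of all genes. Some other lists leaned that way at both ages too. The 10 myeloid transcription factors were above 0 for 10 at P4 and 9 at P8 (medians 0.51 and 0.39). The 21 lysosome and phagocytosis genes were above 0 for 17 and 16, and the 10 Mueller glia markers for 8 and 9. The 5 complement receptor genes tested were above 0 for 5 and 3. The 15 activated state genes were above 0 for 10 at P4 (median 0.29) and 7 at P8 (median -0.09). The 6 other macrophage markers were above 0 for 5 (median 0.70) and 2 (median -0.15). For the 10 genes the median was -0.06 at P4 without wild-type P4 replicate 2 and -0.06 at P8 without Kir2.1 P8 replicate 1, and list medians without these libraries were not computed. Ganglion cell markers were below 0 for 12 of 12 at P4, with a median of -1.32. None was called, and 9 of the 12 had an unadjusted p under 0.05, beside 7.22% of all genes. They summed to 1879 and 1308 CPM in wild type against 964, 405 and 1019 CPM in Kir2.1. At P8 their median was -0.19, and they summed to 528 to 638 CPM in wild type and 513 to 609 CPM in Kir2.1. At P8 the rod markers were above 0 for 10 of 10 (median 0.88) and the amacrine cell markers below 0 for 10 of 10 (median -0.54), none called, and wild-type P8 replicate 1 was the library with few rod transcripts. Dividing cell markers were above 0 for 10 of 10 at P4 (median 0.31) and 7 of 10 at P8 (median 0.27). At P4 they summed to 2957 and, in replicate 2, 1083 CPM in wild type, and to 3093, 2402 and 2460 CPM in Kir2.1. Pigment epithelium markers were above 0 for 3 of 6 at P4 and 6 of 6 at P8 (median 2.55), where 4 had an unadjusted p under 0.05 and none was called. The P8 sum of that list stood apart in Kir2.1 P8 replicate 2 alone, at 31.6 CPM. It was 7.12 and 6.61 CPM in the other Kir2.1 P8 libraries and 4.58 to 6.55 CPM in wild type. The part of these differences in the microglial values was not tested.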

How the data were processed

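RNA-seq was done on dissociated mouse retina. The authors deposited whole-number counts per Ensembl gene for each of the 11 libraries, and groups came from the titles. Per the submitters' processing notes, the tools were cutadapt 1.18, STAR 2.5.0c, SAMtools 1.9, bedtools 2.26.0, HTSeq 0.6.1 and DESeq2, and the build mm10; the annotation and strand setting are not given in the sources used here. Records that name no gene (74.6% to 79.8% of a library) were left out. The authors also deposited a table of Kir2.1 against wild type for each age. Their columns, per the file headers, are the mean normalized count (a signal in the authors' scaling), the log2 fold change and its standard error, a score equal to the ratio of both, and p-values; their direction was read from the sign against the counts.

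Counts were fitted with edgeR 4.0.16 in R 4.3.3: TMM scaling, filterByExpr by group, and a quasi-likelihood model with 4 group means over all 11 libraries (7 residual degrees of freedom). p-values were adjusted over all 18188 genes tested (Benjamini-Hochberg, threshold 0.05). Standard errors are the fold change over the root of the F statistic. CPM are TMM-scaled. Intervals are 95%. Likeness used log2(CPM + 0.5). The fitting script was tested on simulated data.

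All 10 members were named. Genes of the complement, ligand and receptor lists could be named; of other lists, the genes called, at most 4 highest and 4 lowest, or the most abundant examples. Tmem119, Selplg and the remaining genes not called or beyond that number were chosen after their values were seen. Some genes that this rule would name are not reported here. The members and the gene lists were chosen with earlier results of these data known. Alternatives were DESeq2 1.42.0 size factors, the DESeq2 test, limma 3.58.1 voom with quality weights, other filters, removal of genes above 1% of a library, only the libraries compared, a replicate block, and each replicate left out; leaving out wild-type P4 replicate 2 and wild-type P8 replicate 1 together was chosen after seeing the data.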

Additional observations from a re-analysis of the deposited data

How the results depend on the processing

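All 10 genes stayed lower at P8 than at P4, averaged over genotypes, under every alternative run. For that comparison voom called 7 members as edgeR did, but with Ctss (adjusted p = 0.0447) in place of Aif1 (adjusted p = 0.0758). Without the filter on low counts edgeR called 339 genes for Kir2.1 at P4 and 447 at P8, against 0 and 0 with it. It called 901 genes for the average of ages and 136 for the interaction, against 0 and 0. For age it called 2058 genes in wild type and 3661 in Kir2.1, against 798 and 3029. Members called were then 2 for the average of ages (Csf1r and Ctss, higher), 8 for age in wild type and 9 for age in Kir2.1. The DESeq2 test called 21, 1 and 55 genes for Kir2.1 at P4, at P8 and on average. For age it called 1444 genes in wild type and 3583 in Kir2.1, and 1 member in each genotype. Only the libraries compared gave 113 genes for age in wild type, and 4264 genes and 2 members for age in Kir2.1. For age in Kir2.1 voom gave 4286 genes and 4 members. With wild-type P4 replicate 2 and wild-type P8 replicate 1 both left out, 1845 genes were called for age in wild type and 1 member for age in Kir2.1. The causes were not tested.

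Deviations of same-numbered libraries from their group means correlated at -0.076 to 0.14, not over 0.1 in every pair. With 2 or 3 libraries per group this cannot decide whether the numbers pair them, and the main fit did not pair them. With the replicate block, 1 member and 1176 genes were called for age in wild type, and 5 members and 3914 genes in Kir2.1. For Kir2.1 over wild type, log2 values then turned below 0 in Aif1 (-0.22) and Tyrobp (-0.34) at P4. Tyrobp was also below 0 at P8 (-0.0255) and on average (-0.18). With the 2 wild-type libraries both left out the same contrast turned at P4 for C1qa (-0.18), C1qb (-0.077), C1qc (-0.045), Cx3cr1 (-0.10), Aif1 (-0.23) and Tyrobp (-0.31), at P8 for Tyrobp (-0.21) and Trem2 (-0.056), and on average for Tyrobp (-0.26).

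With 1 library left out in turn, the genes called ranged from 0 to 6 for Kir2.1 at P4, 0 to 219 at P8 and 0 to 609 on average (both highest without wild-type P8 replicate 3) and 0 to 1 for the interaction, from 163 (without wild-type P4 replicate 1) to 1339 (without wild-type P4 replicate 2) for age in wild type, 1764 to 2169 in Kir2.1 and 2133 to 4417 on average. Members called ranged from 0 to 7 for age in Kir2.1 and from 0 to 10 for age on average. Log2 values that changed sign ranged, at P4, from -0.18 to 0.76 (C1qa), -0.075 to 0.73 (C1qb), -0.043 to 0.998 (C1qc), -0.10 to 0.62 (Cx3cr1), -0.23 to 0.76 (Aif1) and -0.39 to 0.48 (Tyrobp). At P8 they ranged from -0.16 to 0.77 (C1qb), -0.027 to 0.67 (C1qc), -0.079 to 0.92 (Cx3cr1), -0.17 to 0.77 (Csf1r), -0.30 to 0.74 (P2ry12), -0.50 to 0.67 (Tyrobp), -0.040 to 0.80 (Ctss) and -0.057 to 0.44 (Trem2). Tyrobp ranged from -0.23 to 0.35 on average, and P2ry12 from -0.99 to 0.057 for age in wild type. The median interaction of the 10 genes ranged from -0.46 to 0.43.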
